A study of Mus musculus with 6 samples.

Results

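ATP-binding cassette (ABC) transporter genes were examined in cultured mouse intestinal organoids, which are epithelial structures grown from gut stem cells. The genes were taken from the deposited counts by symbol alone, as every symbol made of Abc, a subfamily letter from a to g, a number and an optional a or b. This found 50 of 24786 symbols, 16 in subfamily A, 10 each in B and C, 4 in D, 1 in E, 3 in F and 6 in G. The ABC genes Cftr, Tap1 and Tap2 carry other symbols and were not members.

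The 6 RNA-seq libraries came from wild-type organoids that had been broken into single cells for 10 min. In 3 libraries the cells were kept for 16 h with 100 µM tyramine, an amine that gut bacteria make from tyrosine. The other 3 were controls, named by the solvent DMSO in the titles and by control medium in the design text, and whether the tyramine cultures held DMSO is not stated. The age of the mice, the region of gut and whether replicates were separate cultures are not given, so the p-values measure variation among these libraries, part or all of which may be technical.

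ABC proteins share a cassette that binds and splits ATP. Most are membrane pumps that export lipids, sterols, bile salts, conjugated metabolites or drugs, whereas subfamilies E and F have no membrane part and act on ribosomes. In the small intestine, pumps of the apical membrane such as P-glycoprotein, Abcc2, Abcg2 and the Abcg5 and Abcg8 pair return drugs, conjugates and plant sterols to the gut lumen. Pumps of the basolateral membrane such as Abcc1 and Abcc3 face the blood.

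Libraries held 29176428, 32489563 and 29898545 counts with tyramine and 29154975, 35035955 and 28316372 in controls. Markers of epithelium in general (Epcam, Krt8, Krt18, Krt19 and Cdh1) summed to 13661 to 14933 CPM (counts scaled to library size) with tyramine and 13628 to 15060.0 CPM in controls, but Krt18 and Cdh1 rose 1.59-fold and 1.31-fold, Epcam and Krt19 fell 1.36-fold and 1.59-fold, and Krt8 did not pass. The 5 fibroblast markers summed to 7.94 to 8.21 CPM with tyramine and 8.06 to 9.05 CPM in controls, the 5 immune markers to 1.76 to 4.32 and 1.26 to 2.496 CPM and the 4 endothelial markers to 0.209 to 0.755 and 0.316 to 0.329 CPM. Tyramine replicate 3 stood farther from the other tyramine libraries (Pearson's r of log2 CPM over genes 0.89 and 0.883) than those did from each other (0.908), while control libraries correlated at 0.954 to 0.962; genes are not independent replicates.

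Tyramine cultures held more mRNA of several multidrug resistance proteins of subfamily C, and less of the sterol and drug pumps of subfamily G, than control cultures did. Of the 50 genes, 43 had a count in some library and 33 had enough counts to be tested. In the test over all 12139 genes (quasi-likelihood test of edgeR, with p adjusted by Benjamini-Hochberg and called under 0.05), 6 ABC genes rose, 6 fell and 21 did not pass. Over all genes tested, 12.5% rose and 13.3% fell, 25.8% in all, and of the tested ABC genes 18.2% rose and 18.2% fell. Genes that rose were Abcb11, Abcc1, Abcc2, Abcc3, Abcc4 and Abcf2, and those that fell were Abcb1a, Abcb10, Abcd3, Abcg2, Abcg5 and Abcg8. The median log2 fold change, tyramine minus control, of the 33 was -0.38, and over all genes it was 0.00. In bulk RNA, fewer cells of a type and less RNA per cell cannot be told apart. Values of the groups did not overlap for 22 of the 33 members (66.7%), against 44.5% of all genes tested.

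**Figure D1:**
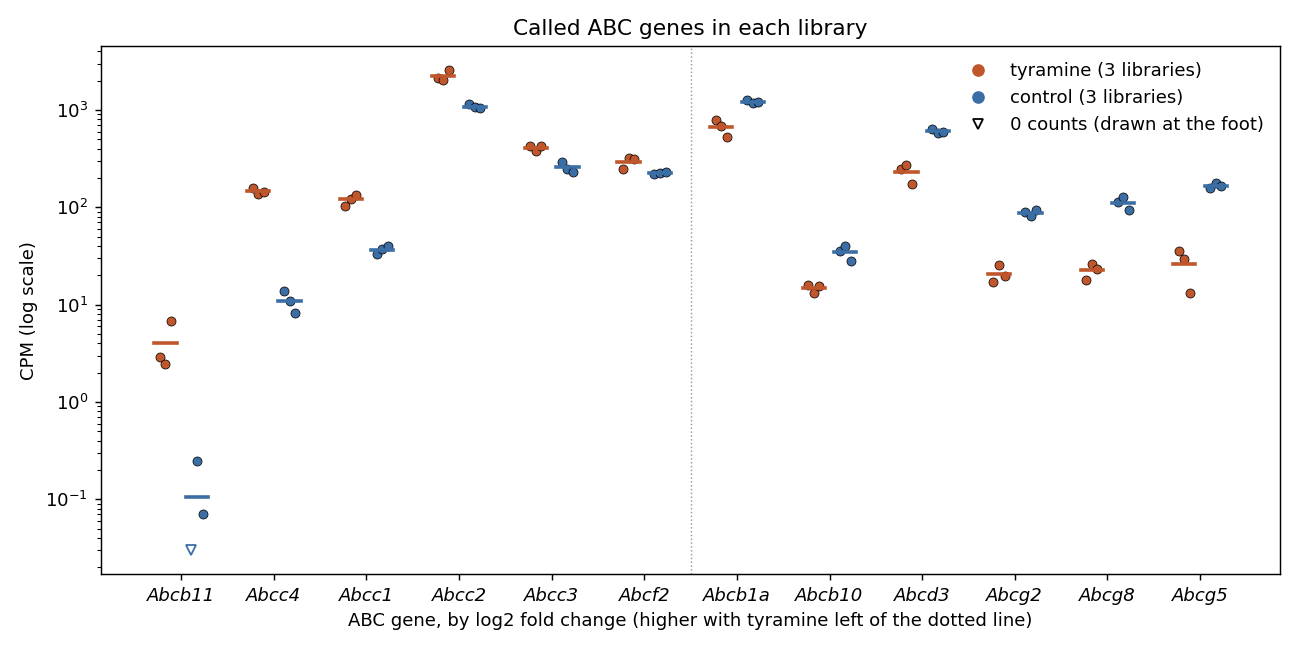
CPM on a log scale of the 12 ABC genes that passed the test, in each tyramine library (orange) and each control library (blue), with bars at the group means and an open triangle for 0 counts. The libraries of the groups do not overlap for any of the 12 genes, and Abcb11 has 0, 9 and 2 counts in controls.

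By subfamily, 4 of the 8 tested C genes rose and the other 4 did not pass, and all 3 tested G genes fell. In subfamily B, 1 of 9 rose and 2 fell, in D 1 of 3 fell, and in F 1 of 3 rose. None of the 6 tested A genes passed with edgeR, where 1, Abca1, had an unadjusted p under 0.05, and the same 1 gene passed with DESeq2 and with limma-voom. The single E gene, Abce1, did not pass, with 0 at an unadjusted p under 0.05 and 0 by either other tool. Grouped by role, 4 of 10 tested genes of drug and conjugate efflux rose and 2 fell, 2 of 8 of sterol and phospholipid export fell, and 1 of the 3 peroxisomal and lysosomal D genes fell. Of all genes tested, 25.8% passed. The share was 25% in sterol and phospholipid export, about that of all genes, and 33.3% in each of subfamilies B, D and F. It was 50% in C, 100% in G and 60% in drug and conjugate efflux, from 3 to 10 genes each. The median log2 fold change was 0.04 for drug and conjugate efflux, -1.41 for sterol and phospholipid export and -0.56 for the D genes.

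**Figure D2:**
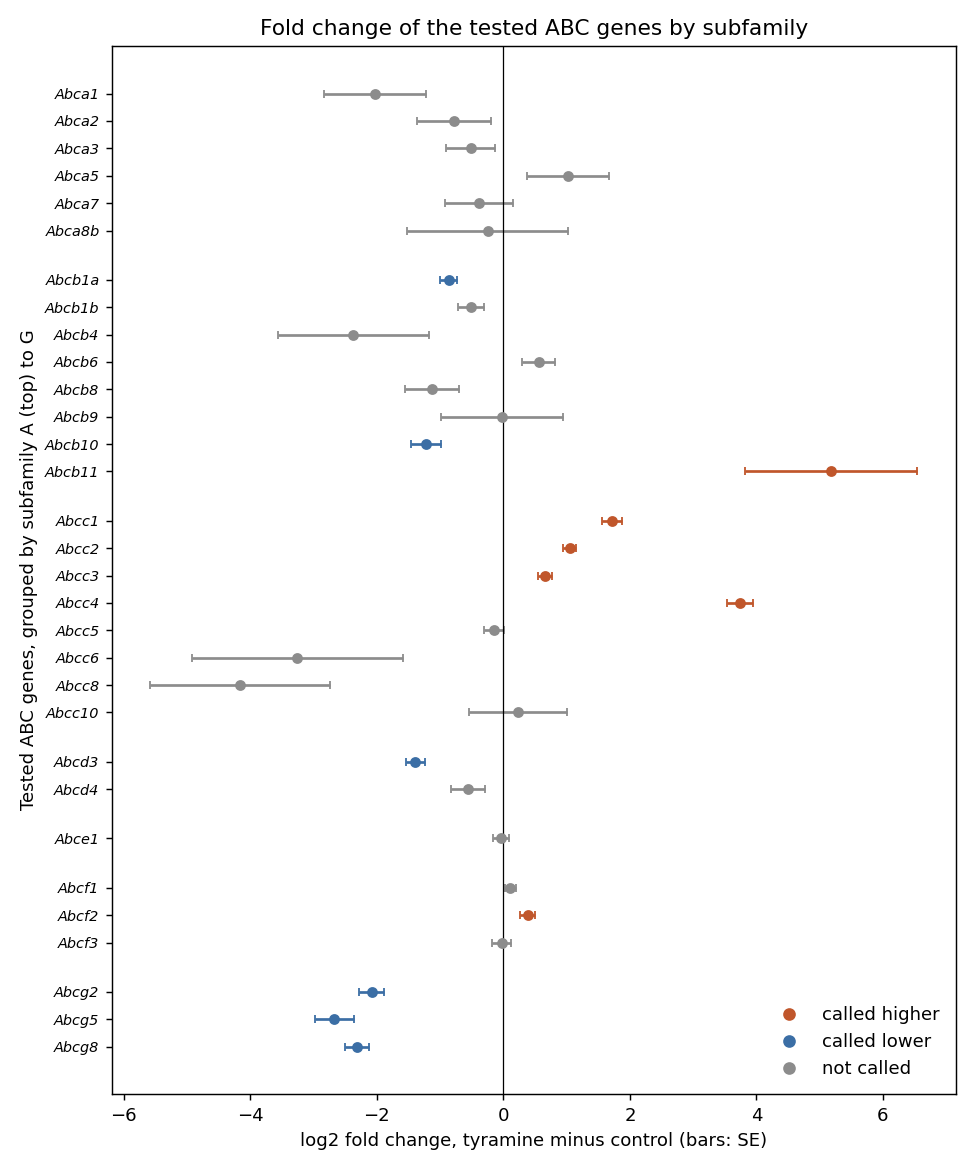
Log2 fold change (tyramine minus control) with its standard error for 31 of the 33 tested ABC genes, grouped by subfamily from A at the top to G at the bottom and coloured by call. The 3 tested G genes lie at -2.67 to -2.08, and Abcc1 to Abcc4 lie at 0.66 to 3.74.

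Abcc4, or MRP4, which exports cyclic nucleotides and prostaglandins, was the member with the smallest p. It had 159, 137 and 144 CPM in the tyramine libraries, against 13.7, 11.0 and 8.25 CPM in the control libraries. Every tyramine library lay far above every control. This was a 13.4-fold rise (edgeR log2 fold change 3.74, SE 0.21, adjusted p = 1.8e-06). The gene lies on GRCm38 chromosome 14, 118482692 to 118706219, minus strand. Its first RefSeq promoter window is shown because it holds the core letters TGACNNNGC of the antioxidant response element, the site bound by the stress factor NRF2, in capitals, read on the strand opposite to the gene, with the first base of the match at position -25 from the transcript start.
Abcc4 promoter (RefSeq, GRCm38.p6, chr14:118706170-118706469, minus strand): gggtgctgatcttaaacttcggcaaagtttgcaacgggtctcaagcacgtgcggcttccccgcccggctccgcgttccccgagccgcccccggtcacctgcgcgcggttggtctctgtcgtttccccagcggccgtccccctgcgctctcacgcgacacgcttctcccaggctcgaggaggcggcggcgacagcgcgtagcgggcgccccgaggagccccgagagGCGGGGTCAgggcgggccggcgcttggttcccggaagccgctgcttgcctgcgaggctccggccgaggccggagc

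Abcc1, or MRP1, exports glutathione conjugates and leukotriene C4 across the basolateral membrane. It had 104, 123 and 135 CPM with tyramine, against 32.8, 37.5 and 39.6 CPM in controls, a rise of 3.29-fold with no overlap (edgeR log2 fold change 1.72, SE 0.16, adjusted p = 4.37e-05). The ratio of Abcc4 to Abcc1 CPM was 1.53, 1.12 and 1.07 with tyramine and 0.418, 0.294 and 0.208 in controls, so it was higher in every tyramine library than in any control. With 3 libraries against 3, the exact two-sided permutation p = 0.1 is the smallest possible (0.2 adjusted over 4 ratios).

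Abcc2, or MRP2, is the apical pump for glutathione and glucuronide conjugates. Its level was 2121, 2029.5 and 2577 CPM with tyramine and 1139.6, 1067 and 1047 CPM in controls. The groups were clearly apart, a 2.07-fold rise (edgeR log2 fold change 1.05, SE 0.10, adjusted p = 6.47e-05). Its promoter, on chr19:43782058-43782357, plus strand, is shown because it too holds the antioxidant response core. Capitals mark the core on the gene's own strand, at position -98 from the RefSeq start.
Abcc2 promoter (RefSeq, GRCm38.p6, chr19:43782058-43782357, plus strand): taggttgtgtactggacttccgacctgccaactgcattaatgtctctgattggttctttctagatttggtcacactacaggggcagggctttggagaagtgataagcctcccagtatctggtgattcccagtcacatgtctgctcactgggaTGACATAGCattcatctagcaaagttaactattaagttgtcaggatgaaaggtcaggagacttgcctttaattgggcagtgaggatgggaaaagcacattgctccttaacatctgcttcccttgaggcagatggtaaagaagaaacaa

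Those core letters, searched on both strands, occurred in 12.4% of all 32851 promoter windows of 300 bases and in 5 of the 38 ABC genes with a window (13.2%; a gene can have several windows). The 5 were Abcc2 and Abcc4, which rose, Abcb1a, which fell, and Abca8b and Abcc10, which did not pass. Abcb11 and Abcf2, which rose as well, had windows that did not hold the letters. Abcc1 and Abcc3, which also rose, had no window and could not be searched. The start used for the Abcb1a window lies 92986 bases from the start of that gene in the GENCODE M21 annotation. For Abcc2 the distance is 116 bases, and the match lies after the GENCODE start. A match describes letters, not a bound site.

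Abcc3, or MRP3, which passes glucuronides and bile salts to the blood side, rose to 421, 381 and 424 CPM with tyramine, against 294, 250.0 and 231 CPM in controls. All 3 tyramine libraries lay above all controls, and the rise was 1.58-fold (edgeR log2 fold change 0.66, SE 0.11, adjusted p = 0.00194). Abcc5, an exporter of cyclic nucleotides, held 42.9, 46.2 and 44.8 CPM with tyramine and 50.1, 50.7 and 47.2 CPM in controls (edgeR log2 fold change -0.15, SE 0.16, adjusted p = 0.563). Its groups did not overlap either, but by a small margin. Abcc10, or MRP7, had 5.44, 8.18 and 1.04 CPM with tyramine and 3.98, 2.41 and 6.07 CPM in controls, and its tyramine libraries lay on both sides of the controls.

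Abcc6, a pump best known in liver and kidney, had 0, 0 and 22 counts with tyramine, against 70, 110 and 59 counts in controls. It did not pass (edgeR log2 fold change -3.26, SE 1.67, adjusted p = 0.191), and all 22 of its tyramine counts were in replicate 3. Without that library the log2 fold change was -9.26, a fitted value that is no bound since the remaining tyramine libraries were at 0, and the adjusted p = 0.00525. With limma-voom the adjusted p was 0.0402, and it reached 0.384 over its other alternatives. Abcc8, the sulfonylurea receptor of the potassium channel that couples ATP to secretion, had 5, 2 and 0 counts with tyramine and 60, 47 and 34 in controls (log2 fold change -4.16, edgeR adjusted p = 0.0573). It passed with DESeq2 (adjusted p = 0.025) and without robust estimation (edgeR adjusted p = 0.0446) and otherwise had adjusted p-values of up to 0.179. Of 7 tested enteroendocrine markers 4 fell, against the 13.3% of all genes that fell. All 8 listed summed to 349 to 557 CPM with tyramine and 1120.2 to 1160.0 CPM in controls, most of it Chgb. Tph1, one of them, was at 0 counts in all tyramine libraries. Cck and Neurod1 had higher means with tyramine and Gcg a lower one, and none of these passed. The part of the enteroendocrine markers in the Abcc8 values was not tested.

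Abcb1a and Abcg2, which encode drug pumps that are also apical, fell where Abcc2 rose. P-glycoprotein is encoded in mice by the neighbouring genes Abcb1a and Abcb1b. Abcb1a had 792, 684 and 525 CPM with tyramine, against 1265, 1169 and 1205 CPM in controls, and fell 1.82-fold (edgeR log2 fold change -0.86, SE 0.13, adjusted p = 0.00126). Every tyramine library was under every control, and replicate 3 was the lowest. Gm42684 overlaps Abcb1a by 3615 bases on the same strand in GENCODE M21, so some counts may be shared. Abcb1b had 34.4, 27.4 and 28.6 CPM with tyramine and 51.9, 38.7 and 38.2 CPM in controls, again without overlap, but did not pass (edgeR log2 fold change -0.51, SE 0.21, adjusted p = 0.104). Of stretches of 31 bases in the Abcb1b transcript, 24.9% also occur in that of Abcb1a, so the split of counts between the pair is uncertain. The ratio of Abcb1a to Abcb1b CPM was 23.0, 24.9 and 18.3 with tyramine and 24.4, 30.2 and 31.5 in controls, with overlap (exact two-sided permutation p = 0.2, or 0.267 adjusted over 4 ratios).

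Abcg2, the breast cancer resistance protein, which pumps drugs and urate, had 17.1, 25.5 and 19.5 CPM with tyramine and 88.5, 81.8 and 92.9 CPM in controls. The tyramine libraries were all far lower, a 4.24-fold fall (edgeR log2 fold change -2.08, SE 0.19, adjusted p = 4.97e-05). The ratio of Abcc2 to Abcg2 CPM was 124, 79.6 and 132 with tyramine, against 12.9, 13.1 and 11.3 in controls. This gap follows from the separate calls of the pair. Its exact two-sided permutation p = 0.1 is the smallest possible with 3 libraries against 3 (0.2 adjusted over 4 ratios).

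Abcg5 and Abcg8 form a dimer that pumps plant sterols and cholesterol into the lumen, and both fell. Abcg5 had 35.6, 29.6 and 13.1 CPM with tyramine, against 158, 176 and 165 CPM in controls, 6.37-fold lower (edgeR log2 fold change -2.67, SE 0.31, adjusted p = 0.000197). Abcg8 had 18.1, 26.0 and 23.4 CPM with tyramine, against 114, 128 and 93.3 CPM in controls, 4.97-fold lower (edgeR log2 fold change -2.31, SE 0.19, adjusted p = 2.55e-05). For both genes each tyramine library was far under each control. The ratio of Abcg5 to Abcg8 CPM was 1.97, 1.14 and 0.558 with tyramine and 1.39, 1.38 and 1.77 in controls (exact two-sided permutation p = 0.5). The tyramine ratios lay on both sides of the controls.

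The pair is read from chromosome 17 in opposite directions, with RefSeq starts 110 bases apart, at 84683011 for Abcg5 on the minus strand and at 84683121 for Abcg8 on the plus strand. The Abcg8 window is shown because 209 of its 300 bases are also in the Abcg5 window. Capitals mark TATAAA on the strand of Abcg5 (84683090 to 84683095) and CCAAT on the strand of Abcg8, of which the second copy (84683007 to 84683011) ends at the first base of Abcg5.
Abcg8 promoter (RefSeq, GRCm38.p6, chr17:84682871-84683170, plus strand): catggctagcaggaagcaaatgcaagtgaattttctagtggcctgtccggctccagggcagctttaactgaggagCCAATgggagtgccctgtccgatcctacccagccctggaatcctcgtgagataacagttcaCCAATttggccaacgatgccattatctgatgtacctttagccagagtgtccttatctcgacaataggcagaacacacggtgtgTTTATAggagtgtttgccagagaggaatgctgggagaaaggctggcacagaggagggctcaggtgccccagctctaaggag

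Searched on both strands, TATAAA occurred in 13.6% and CCAAT in 37.4% of all windows. GENCODE M21 also places an Abcg8 start inside Abcg5, so that the 2 genes overlap by 6710 bases on opposite strands. Because the strand setting of the counting is not given, counts in the overlap cannot be assigned with certainty.

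Of the apical and basolateral pumps, Abcg5, Abcg8, Abcg2 and Abcb1a fell, while Abcc1, Abcc2 and Abcc3 rose. All 14 enterocyte markers fell, and they summed to 4589 to 5055 CPM with tyramine and 22311 to 23698 CPM in controls. Lct, the lactase gene, had 0, 0 and 13 counts with tyramine and 433, 270 and 258 in controls. Keratins of squamous or injured epithelium moved the other way, with 3 of 4 tested rising and a summed level of 517 to 954 CPM with tyramine and 1.61 to 3.51 CPM in controls. Of 8 stem and cycling markers, the 4 of cycling cells (Mki67, Top2a, Ccnb1 and Cdk1) fell. The stem cell marker Smoc2 did not pass (edgeR adjusted p = 0.858), and Lgr5, Olfm4 and Ascl2 had too few counts to be tested. The 8 summed to 40.1 to 45.4 CPM with tyramine and 1890.1 to 2350.2 CPM in controls, most of it Mki67 and Top2a. Of 5 tested goblet markers 3 fell, of 5 tested Paneth markers 1 fell, and neither of the 2 tested tuft markers passed. All these marker counts stand beside 12.5% of all genes tested that rose and 13.3% that fell. The part of these lists in the ABC results was not tested.

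Abca1 loads cholesterol and phospholipid onto apolipoprotein A-I. Its level varied strongly between tyramine libraries, with 13.9, 4.47 and 0.592 CPM, against 24.8, 22.8 and 29.7 CPM in controls. The groups did not overlap, yet the gene did not pass (edgeR log2 fold change -2.03, SE 0.81, adjusted p = 0.102). It passed with DESeq2 (adjusted p = 0.0122), with limma-voom (0.00943) and with edgeR without tyramine replicate 1 (log2 fold change -3.34, adjusted p = 0.0161) or 3 (-1.49, adjusted p = 0.0285), and its adjusted p reached 0.223 without control replicate 3.

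Abca3, known for packing surfactant lipid in the lung, had 37.0, 22.8 and 12.9 CPM with tyramine and 36.1, 45.7 and 22.1 CPM in controls, with overlap (edgeR log2 fold change -0.51, SE 0.39, adjusted p = 0.383). Abca7, a phospholipid exporter, had 9.64, 11.8 and 2.40 CPM with tyramine and 10.3, 9.79 and 11.0 CPM in controls, and replicate 3 alone was low. Abca2 and Abca5, lipid pumps of lysosomes and endosomes, averaged 4.83 ± 2.26 and 5.37 ± 1.40 CPM with tyramine, against 8.32 ± 3.95 and 2.66 ± 1.13 CPM in controls (SD, n = 3; edgeR adjusted p = 0.383 and 0.3). The groups overlapped for Abca2 and not for Abca5. Abca8b had 68, 5 and 6 counts with tyramine and 27, 49 and 30 in controls, so only replicate 1 was above the controls. Abcb4, the phosphatidylcholine flippase of bile, was near the limit of detection, with 6, 3 and 2 counts with tyramine and 24, 22 and 17 in controls (edgeR adjusted p = 0.186).

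Abcb11, the bile salt export pump of liver cells, rose, against a control level near 0. It had 82, 78 and 197 counts with tyramine, against 0, 9 and 2 counts in controls, or 2.90, 2.45 and 6.86 CPM and 0, 0.247 and 0.0702 CPM. Every tyramine library was above every control, and replicate 3 was the highest. All its control counts were under the minimum count of 10 in the filter, so it entered the test through its tyramine counts alone. With no filter on low counts Abcb11 also passed (edgeR adjusted p = 0.017). The log2 fold change was 5.18 (SE 1.36, edgeR adjusted p = 0.0191), and the call was lost without control replicate 1 (adjusted p = 0.0551) or 3 (0.0922), within 4.88e-05 to 0.0922 over its alternatives. Without control replicate 2, which held 9 of the 11 control counts, the log2 fold change was 6.71. An antisense gene and a pseudogene overlap Abcb11 on the other strand, so these counts are uncertain.

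Abcd3, a pump of the peroxisome membrane that takes in branched fatty acids and bile acid precursors, had 249.9, 269 and 173 CPM with tyramine and 633, 580.4 and 600.0 CPM in controls. It fell 2.62-fold with a wide gap between the groups (edgeR log2 fold change -1.39, SE 0.15, adjusted p = 0.000135). On the same strand, Gm43609 overlaps Abcd3 by 2712 bases and 4633401B06Rik by 1073 bases, so some counts may be shared. Abcd4, which takes cobalamin out of lysosomes, had 15.5, 14.0 and 16.1 CPM with tyramine and 21.0, 27.6 and 18.5 CPM in controls, with no overlap (edgeR log2 fold change -0.56, SE 0.27, adjusted p = 0.162). Abcd2 had at most 5 counts in any library and was not tested.

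The Abcd3 promoter is shown because Abcd3 was the 1 ABC gene of 38 with the letters CAAAGTCCA in any window. These letters are a site of the nuclear receptors HNF4A and HNF4G, and 0.475% of all windows hold them. Of the 2 Abcd3 windows only the first does, and a match describes letters, not a bound site. The capitals mark the match on the gene's own strand from position 14 after the start.
Abcd3 promoter (RefSeq, GRCm38.p6, chr3:121815253-121815552, minus strand): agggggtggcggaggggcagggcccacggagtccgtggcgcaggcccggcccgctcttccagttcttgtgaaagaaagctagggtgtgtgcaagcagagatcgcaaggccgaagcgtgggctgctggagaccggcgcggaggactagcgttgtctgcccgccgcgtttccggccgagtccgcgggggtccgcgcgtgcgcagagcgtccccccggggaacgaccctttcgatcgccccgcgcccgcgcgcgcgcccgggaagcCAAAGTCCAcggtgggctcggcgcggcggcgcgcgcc

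Of 16 peroxisomal oxidation genes, 11 fell and 5 did not pass, against the 13.3% of all genes that fell. The median of the 16 log2 fold changes was -1.19. Phyh, which starts the breakdown of phytanic acid, fell to 33.0 ± 4.96 CPM with tyramine, against 152 ± 9.96 CPM in controls (SD, n = 3), Slc27a2, an acyl-CoA synthetase, fell 7.70-fold and Hsd17b4, the bifunctional enzyme of the pathway, fell 2.39-fold. Among 16 peroxins, which build the organelle, 1 rose (Pex6, 2.25-fold), 1 fell and 14 did not pass, which is under the 25.8% of all genes that passed.

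Of the 4 mitochondrial members, Abcb10, which takes part in heme synthesis, fell. It had 15.7, 13.1 and 15.5 CPM with tyramine, against 35.3, 39.8 and 27.9 CPM in controls, 2.33-fold lower and without overlap (edgeR log2 fold change -1.22, SE 0.24, adjusted p = 0.00457). GENCODE M21 lists other genes across Abcb10 on the opposite strand, so some of its counts may be shared. Abcb8, of the inner membrane, had 4.31, 4.97 and 6.72 CPM with tyramine and 13.5, 13.9 and 7.54 CPM in controls (log2 fold change -1.13, edgeR adjusted p = 0.0817), with no overlap, and passed only without tyramine replicate 3 (adjusted p = 0.0458, 0.279 at most elsewhere). Abcb6, a porphyrin carrier, had 53.9, 41.3 and 44.4 CPM with tyramine and 30.2, 21.4 and 43.1 CPM in controls (edgeR log2 fold change 0.56, SE 0.26, adjusted p = 0.153), with overlap at 1 control library. Gm29253 overlaps Abcb6 by 8662 bases on the same strand, so the Abcb6 counts are uncertain. Of 16 genes of iron-sulfur and heme synthesis, 1 rose (Alad, 2.74-fold), 4 fell, among them Cpox (1.59-fold), and 11 did not pass, beside 12.5% of all genes that rose and 13.3% that fell.

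Of the 4 soluble members 1 rose and 3 did not pass, so 25% passed, beside 25.8% of all genes tested. Abce1, which splits ribosomes after translation ends, had 405, 381 and 289 CPM with tyramine and 342, 373 and 387 CPM in controls (edgeR log2 fold change -0.03, SE 0.13, adjusted p = 0.888), and replicate 3 alone was low. Abcf1, a factor of translation initiation, had 1170.1, 1062 and 1209 CPM with tyramine and 1015, 1022 and 1150.0 CPM in controls (edgeR log2 fold change 0.11, SE 0.089, adjusted p = 0.42). Abcf3 had 78.9, 64.3 and 64.7 CPM with tyramine and 69.8, 79.0 and 63.3 CPM in controls (edgeR log2 fold change -0.03, SE 0.16, adjusted p = 0.921). Groups overlapped for these 3 genes.

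Abcf2 rose by a small amount, with 249, 318 and 315 CPM with tyramine and 219.7, 225 and 231 CPM in controls (edgeR log2 fold change 0.38, SE 0.12, adjusted p = 0.0339). The groups did not overlap, but the call was lost with library totals alone (adjusted p = 0.084) and without any 1 library except tyramine replicate 1 (0.0583 to 0.126). Of 9 genes that act with Abce1 and the F proteins in ribosome recycling and translation control, 4 rose and 5 did not pass, against the 12.5% of all genes that rose. Among the 4 were Etf1, the release factor that ends translation (1.52-fold), and Eif2s1, a subunit of the initiation factor eIF2 (1.41-fold).

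Scaled to the length of the longest coding transcript, the ABC genes together gave 1314, 1248 and 1284 CPM per kb with tyramine and 1357, 1328 and 1360.2 CPM per kb in controls, and took 0.567% to 0.596% of counts with tyramine and 0.57% to 0.601% in controls. Abcf1 had the highest level per length in both groups, 363 ± 24.2 CPM per kb with tyramine and 336 ± 24.1 in controls (SD, n = 3). Abcc2 came next with tyramine at 279 ± 36.5 CPM per kb, against 135 ± 6.05 in controls. In controls the second place was held by Abcb1a, with 133 ± 26.8 CPM per kb with tyramine and 243 ± 9.71 in controls, and the next by Abcd3, with 66.1 ± 14.5 and 173 ± 7.60 CPM per kb in the same order.

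As a share of all ABC transcripts per length, Abcc2 made up 20.1, 20.3 and 25.0% in the tyramine libraries and 10.5, 10.0 and 9.59% in controls. Abcb1a made up 12.1, 11.0 and 8.19% with tyramine and 18.7, 17.6 and 17.7% in controls, so the order of these drug and conjugate pumps was exchanged. Summed over the members of drug and conjugate efflux, the level was 569, 528 and 574 CPM per kb with tyramine and 498, 457 and 460.0 in controls. Summed over sterol and phospholipid export it was 29.9, 27.1 and 15.9 CPM per kb with tyramine and 109.6, 121 and 105 in controls. The efflux sums lay close together, though without overlap, and the sterol sums far apart. Most of the sterol sum was Abcg5 and Abcg8, with mean levels of 70.7 and 30.4 CPM per kb in controls and 11.1 and 6.13 with tyramine. Of the 8 tested genes of sterol and phospholipid export, 6 did not pass.

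**Figure D3:**
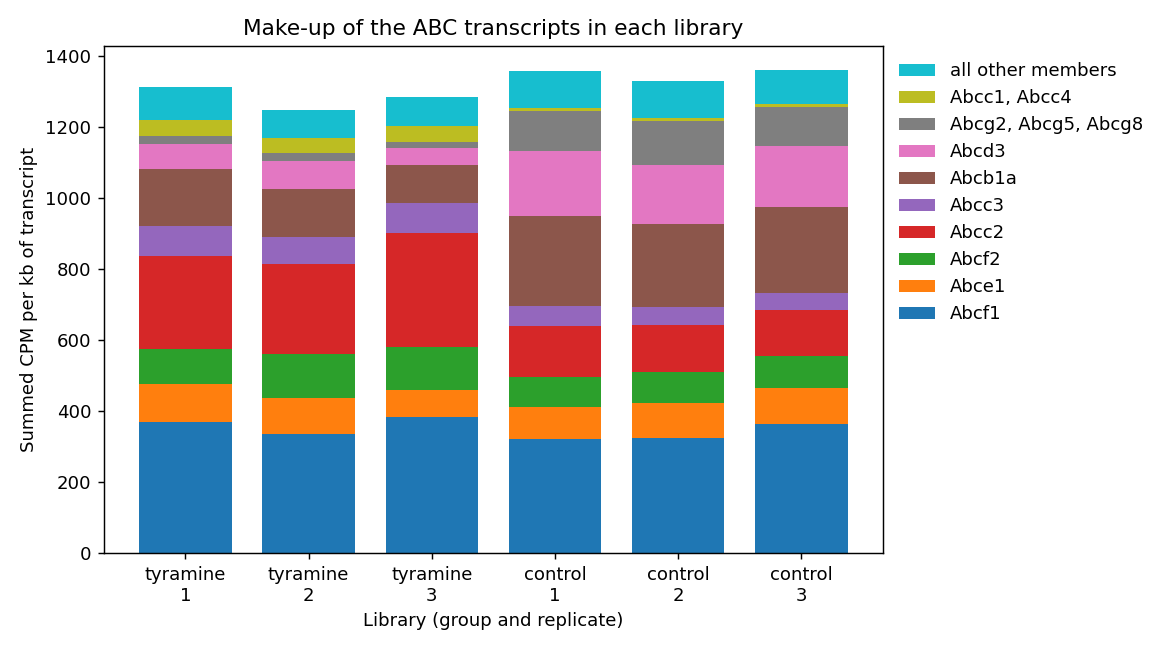
Summed level of the ABC genes per length (CPM per kb of transcript) in each tyramine and control library, split by gene or gene group. Abcc2 takes 20.1% to 25.0% of the bar with tyramine and 9.59% to 10.5% in controls, while Abcd3 and the 3 G genes take less with tyramine.

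The remaining 17 members had too few counts to be tested. Of these, 7 had 0 counts in every library (Abca13, Abca14, Abca15, Abca16, Abcc12, Abcg3 and Abcg4), where 3 counts, the limit that a count of 0 allows, correspond to 0.0823 to 0.106 CPM per library. Abca12, which loads lipids into the skin barrier, had 9, 3 and 157 counts with tyramine and 0, 0 and 0 in controls, at least 20.5-fold higher against a floor of 3 counts per library, but 157 of its 169 counts were in replicate 3. Abca4, known from the retina, had 5, 153 and 31 counts with tyramine and 0, 2 and 0 in controls. Both passed edgeR when no filter on low counts was used (adjusted p = 0.0312 and 0.0404), and the tyramine libraries disagreed widely. The other 8 untested members had at most 22 counts in any library.

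**Figure D4:**
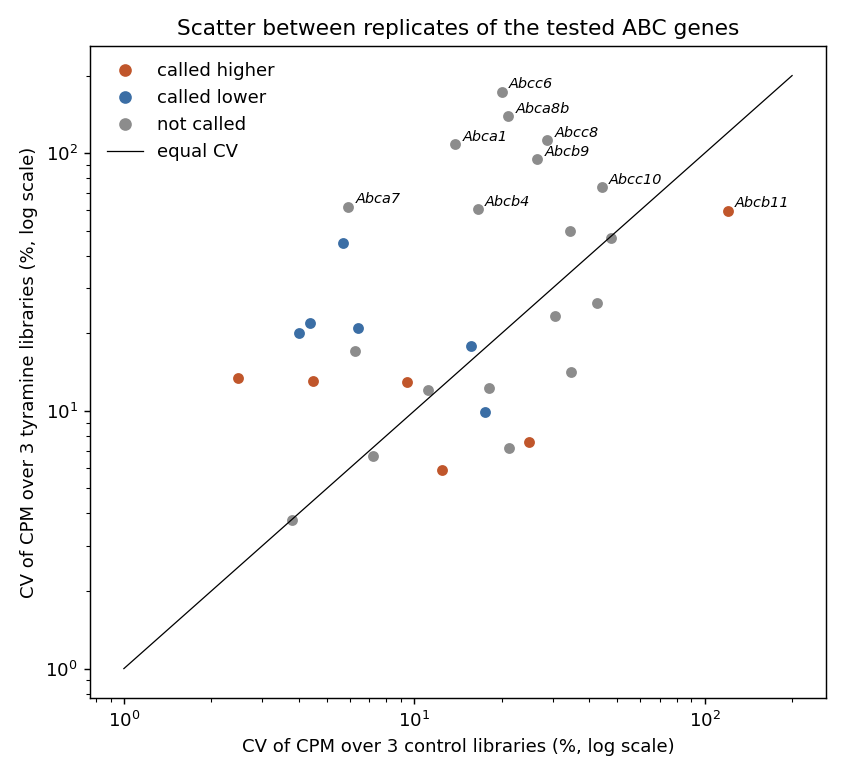
Coefficient of variation (CV, the SD as a percentage of the mean) of CPM over the 3 control libraries (x axis) and the 3 tyramine libraries (y axis) for 31 of the 33 tested ABC genes, both on log scales, with a line where they are equal. Abcc6, Abca8b, Abcc8 and Abca1 have a CV of over 100% with tyramine, and 19 of the 31 genes lie above the line.

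Libraries scattered more with tyramine than in controls. The median CV of the tested ABC genes was 20.9% with tyramine and 15.6% in controls, and over all genes tested it was 28.4% and 15.9%. The CV was the larger with tyramine for 21 of 33 ABC genes (63.6%) and for 73.5% of all genes. Among members that passed, Abcg5 had the largest gain, with a CV of 44.8% with tyramine and 5.67% in controls, and Abcc4 had 7.59% and 24.9%. Abcb9, a lysosomal peptide carrier, had 46, 18 and 138 counts with tyramine and 66, 112 and 53 in controls, on both sides of the controls.

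Members that lie next to each other did not all share a call. Abcb1a, Abcb1b and Abcb4 stand in a row on chromosome 5 with log2 fold changes of -0.86, -0.51 and -2.37, of which the first alone passed. Abcb8 and Abcf2 on the same chromosome, 155290 bases apart, had -1.13 and 0.38. Of the cluster Abca8b, Abca8a, Abca9, Abca6 and Abca5 on chromosome 11, the outer members were tested and neither passed, and Abca14, Abca15 and Abca16 on chromosome 7 were all at 0.

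Genes known to regulate or accompany ABC pumps were read from the same test. Of 14 transcription factors, 7 fell and 7 did not pass, against the 13.3% of all genes that fell. Hnf4a and Hnf4g, enterocyte regulators, fell 2.32-fold and 6.63-fold, and Nr1i2, the pregnane X receptor that induces P-glycoprotein, fell to 77.3 ± 25.5 CPM with tyramine, against 244 ± 19.4 CPM in controls (SD, n = 3). Nfe2l2, which encodes NRF2, had 183 ± 34.3 CPM with tyramine and 138 ± 13.0 CPM in controls and did not pass (edgeR adjusted p = 0.0745).

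Of 12 genes of the sterol receptor LXR and its targets, 1 rose, 2 fell and 9 did not pass, where 12.5% of all genes rose and 13.3% fell. Mylip, which degrades the LDL receptor, rose 7.44-fold, with 2.40, 5.38 and 12.0 CPM with tyramine and 0.626, 0.905 and 1.12 CPM in controls, and did not pass with limma-voom. Apoa1 and Lpcat3 fell 14.0-fold and 3.09-fold. The list summed to 300.1 to 424 CPM with tyramine and 2983 to 3422 CPM in controls, most of it Apoa1, which is also an enterocyte marker. Of the ABC proteins with other symbols, the chloride channel gene Cftr fell to 116 ± 17.9 CPM, against 279 ± 17.3 CPM in controls (2.39-fold, edgeR adjusted p = 8.93e-05). The peptide transporters Tap1 and Tap2 did not pass (edgeR adjusted p = 0.134 and 0.571).

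Of 18 carriers of organic ions and peptides 12 were tested, 1 rose and 3 fell, beside the same 12.5% and 13.3% of all genes. The list mixes uptake carriers with exporters such as Slc47a1. Slc22a4, a carnitine and ergothioneine carrier, rose 6.08-fold, and the peptide carrier Slc15a1 fell 17.5-fold. Slc51b, a subunit of the basolateral bile salt carrier, fell to 0.871 ± 0.708 CPM with tyramine, against 14.4 ± 0.431 CPM in controls. Slc47a1, which exports organic cations, had 0, 0 and 0 counts with tyramine and 157, 130 and 161 in controls, so it was at least 47.2-fold lower if 3 counts are taken as the floor of each library.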

How the data were processed

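RNA was measured in 3 tyramine and 3 control libraries made with a stranded mRNA kit that carries molecular identifiers, per the labels' protocols. The deposited values are whole-number counts per gene symbol. STAR 2.5.3a and the build mm10 are named in the submitters' processing notes, while the sources used here do not give the counting tool, its strand setting or whether identifiers were collapsed. Between 72.6% and 78.7% of counts from 1 to 8 were even numbers in each library, so a count may not stand for 1 molecule, and limits and intervals from counts cover counting error only.

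The counts were tested with edgeR 4.0.16 in R 4.3.3 (quasi-likelihood F-test with robust estimation, TMM scaling, filterByExpr with a minimum count of 10 and a minimum total of 15) over 12139 genes, with Benjamini-Hochberg adjustment and a threshold of 0.05. The script was tested on simulated data. CPM are counts over library size times the TMM factor. CPM per kb divides by the longest protein-coding transcript in GENCODE M21. SE is the log2 fold change over the square root of F. Alternatives used DESeq2 1.42.0, limma 3.58.1, other scaling and filters, counts halved, Abcb1a with Abcb1b and Abca8a with Abca8b summed, a replicate block and each library left out.

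Members and gene lists were chosen with earlier results of these data known. The naming rule gives called members per library, members not called whose mean log2 CPM reached 4 with values, the rest by counts, and up to 3 called genes of each other list. Other genes named, such as Nfe2l2, Lct, Tph1, the organic ion and peptide carriers beyond 3 and members with lower counts, were chosen after their values were seen. Of the members, 38 had a RefSeq promoter window (GRCm38.p6, 250 bases before to 50 after the start). A few genes are counted in the totals but not reported here.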

Additional observations from a re-analysis of the deposited data

How the results depend on the processing

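Of the 12 ABC genes that passed, 10 kept their call and direction under every alternative run, and the exceptions, Abcb11 and Abcf2, are given with their values above. The number of ABC genes that rose was 4 to 7 and the number that fell 6 to 9 with a library left out. It was 8 that rose with no filter on low counts, and 8 and 9 that fell with DESeq2 and limma-voom. Over all genes 3127 passed, against 1977 to 3307 with a library left out (1995, 1977 and 2075 without control replicates 1, 2 and 3). With library totals alone 1221 genes rose and 1803 fell, against 1518 and 1609, and the median log2 fold change of all genes was -0.08, against 0.00. With a replicate block 2594 genes passed, and 6 ABC genes rose and 6 fell. Libraries with the same number did not deviate together (correlations -0.0188, -0.0105 and 0.0109 over genes). With 3 libraries per group, this cannot settle whether the numbers pair them, and the labels do not say.

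The log2 fold change of 6 members reported here, none of which passed, changed sign. With each library left out in turn, it spanned -0.78 to 0.049 for Abca7, -2.55 to 0.25 for Abca8b, -1.11 to 0.44 for Abcb9, -0.36 to 0.71 for Abcc10, -0.13 to 0.10 for Abce1 and -0.13 to 0.054 for Abcf3. Abcc10 was at -0.0020 with the replicate block and -0.0092 with limma-voom. The cause was not tested.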
